A study of Homo sapiens with 2 samples.

Results

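HSF1, CYC1, BOP1, DGAT1, FBXL6, EXOSC4, MAF1, PARP10 and GRINA are 9 protein-coding genes that lie close together near the end of the long arm of human chromosome 8. They were taken by name, as neighbours of HSF1 and CYC1, and all 9 of 9 were found among the 17249 gene symbols of the count table. The names were chosen with the difference between the libraries already known, so the values below describe the genes and test nothing. RNA sequencing of poly(A)-selected RNA was done on 2 libraries of DU145, a human prostate cancer cell line first grown from a brain metastasis. The si-P53RRA library came from cells that received, by transfection, 200 pmol of a small interfering RNA to the long noncoding RNA P53RRA, given fresh medium after 4 h and harvested after a further 48 h. The control library is titled only with the name of the cell line, and the name of its data column points to a negative-control RNA. The labels of the control sample give the same fresh medium after 4 h and further 48 h of culture, but no amount of RNA. Each group had 1 library, so no difference between the groups has a replicate check and no test was possible. Intervals in parentheses are exact 95% intervals and cover counting error only.

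The 9 genes have varied roles in the cell. HSF1 is the transcription factor that turns on chaperone genes under heat and protein stress. CYC1 encodes cytochrome c1, the haem protein of respiratory complex III that passes electrons to cytochrome c. BOP1 is a scaffold of the PeBoW complex, which matures the large ribosomal subunit, EXOSC4 is a ring subunit of the RNA exosome, and MAF1 is the repressor of RNA polymerase III. DGAT1 makes triacylglycerol from diacylglycerol, FBXL6 is an F-box protein with leucine-rich repeats, PARP10 attaches single ADP-ribose units to proteins, and GRINA belongs to a family of membrane proteins with a role in calcium balance and cell survival.

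Total counts were 11942362 in the si-P53RRA library (15174 genes detected) and 16030207 in the control library (16042 genes detected). LINC00472, the gene of P53RRA, had 6 counts in the si-P53RRA library against 105 in the control library, 11.9-fold lower (5.29 to 33.2). The libraries stood far apart across all genes. A level of 1 CPM, the count scaled to the size of the library, was reached in at least 1 library by 13532 genes, the genes tested for size here. At least 2-fold higher in the si-P53RRA library were 19.7% of them and at least 2-fold lower 23.2%, together 42.9%. Cell type markers moved too. All 11 mesenchymal and fibroblast markers were measured, and their summed level was 1509 CPM in the si-P53RRA library against 19177 CPM in the control library. TGFBI, MMP2, THY1 and DCN were at 0 counts in the si-P53RRA library. VIM made up most of the sum there, with 1291 CPM against 2082 CPM in the control library. It was the only 1 of the 11 within 2-fold, and the other 10 were lower. The 10 markers of simple epithelium summed to 2004 CPM in the si-P53RRA library against 399 CPM in the control library. EPCAM had 50 counts in the si-P53RRA library and 0 in the control library. Of the 8 tested, 6 were at least 2-fold higher. The others were KRT7, with 37 counts in the si-P53RRA library against 94, 1.73-fold lower (1.17 to 2.60), and CLDN7, with 23 against 20. CDH1, the cadherin of epithelia, had 7 counts in the si-P53RRA library and 2 in the control library. Of 9 prostate genes 5 were measured. HOXB13 had 10004 counts in the si-P53RRA library against 0 in the control library. Of 5 endothelial genes 3 were tested, with 2 higher and 1 lower: PECAM1 had 101 counts in the si-P53RRA library against 10 in the control library, KDR had 61 against 0, and TEK had 0 against 17. Of 6 leukocyte markers 3 were measured, and those other than CD68 had at most 16 counts in either library. The part of any difference in cell type in the values below was not tested. In such bulk RNA, fewer cells of a type and less RNA per cell cannot be told apart.

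Of the 9 genes, 7 were at least 2-fold higher in the si-P53RRA library, 1 was lower and 1 was within 2-fold. The background for these counts is 19.7% of genes higher and 23.2% lower (42.9% either way), and since the genes were chosen on this contrast nothing is read from the comparison. All 9 reached 1 CPM, PARP10 through the control library alone. The 7 higher genes together held 103632 counts in the si-P53RRA library, 0.868% of all its counts, against 14673 counts in the control library, 0.0915%. On the log2(CPM + 0.5) scale the median difference of the 9 genes was 3.59, beside −0.06 over all 13532 genes.

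**Figure D1:**
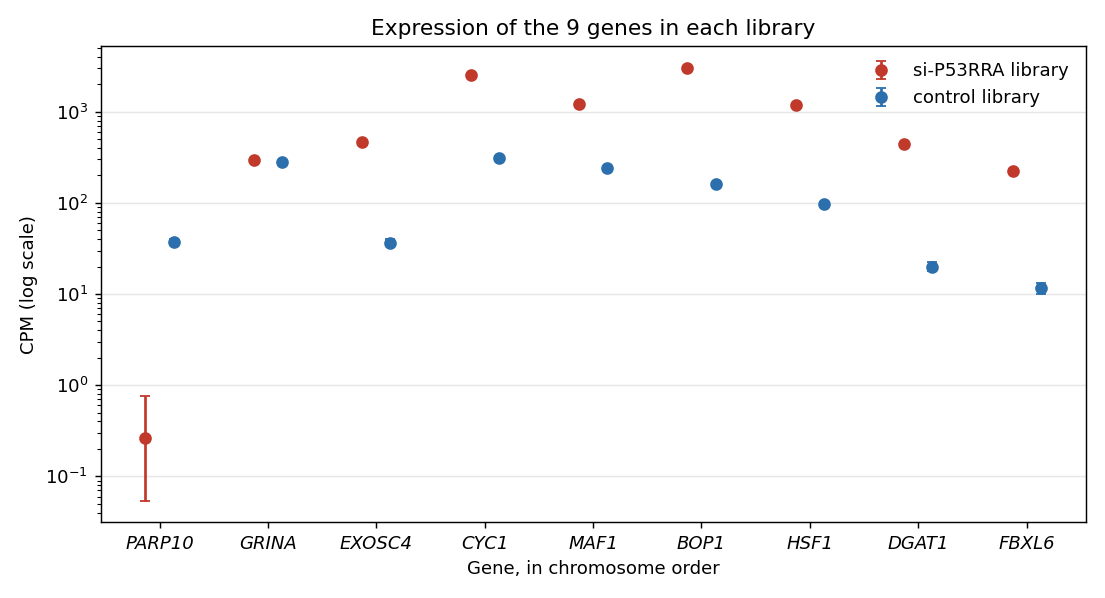
Level of each of the 9 genes in CPM on a log axis, in chromosome order, for the si-P53RRA library (red) and the control library (blue). Points are single libraries and bars are exact 95% Poisson intervals, which cover counting error only. The 7 genes from EXOSC4 to FBXL6 are higher in the si-P53RRA library, GRINA is almost level, and PARP10 is near 0 there.

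Among the 3 genes of RNA and ribosome work, BOP1 differed most. BOP1 had 34403 counts in the si-P53RRA library and 2685 in the control library, 18.8-fold higher (18.1 to 19.6). It was the 16th most counted of 17249 genes in the si-P53RRA library and the 1200th in the control library. EXOSC4 had 5355 counts in the si-P53RRA library against 615 in the control library, 12.8-fold higher (11.8 to 13.9). MAF1, at 13941 counts against 4002, was 5.12-fold higher (4.95 to 5.31), the smallest ratio of the 7.

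The regulator and the metabolic enzymes were higher as well. HSF1 had 13395 counts in the si-P53RRA library and 1628 in the control library, 12.1-fold higher (11.5 to 12.7). CYC1 had 28928 counts in the si-P53RRA library and 5215 in the control library, 8.16-fold higher (7.92 to 8.40). By count it was the 23rd of all genes in the si-P53RRA library and the 502nd in the control library. DGAT1 had 5042 counts against 335 in the control library, 22.1-fold higher (19.8 to 24.8). That was the largest ratio of the 9. FBXL6, at 2568 counts in the si-P53RRA library and 193 in the control library, was 19.6-fold higher (16.9 to 22.8).

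These ratios were not equal within counting error. In descending order they ran DGAT1, FBXL6, BOP1, EXOSC4, HSF1, CYC1 and MAF1. The intervals of DGAT1 and FBXL6 overlapped, as did those of FBXL6 and BOP1 and those of EXOSC4 and HSF1. BOP1 stood clear of EXOSC4, HSF1 of CYC1, and CYC1 of MAF1. Among all genes tested, 1.88% were as much higher as DGAT1 and 6.61% as much higher as MAF1.

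PARP10 and GRINA did not share the increase. PARP10 had 3 counts in the si-P53RRA library against 623 in the control library, 141-fold lower (48.1 to 687). Its level was 0.263 CPM (0.0542 to 0.768) in the si-P53RRA library and 37.1 CPM (34.3 to 40.2) in the control library. Of the genes tested, 1.34% were as much lower. GRINA had 3380 counts in the si-P53RRA library and 4701 in the control library, or 296 CPM against 280 CPM, and its log2 difference was 0.08. The sign depended on the setting, at −0.05 with scaling on total counts and −0.49 once GC content and length of transcripts were corrected for. PARP10 and GRINA are next to each other and their annotated spans overlap, as do those of HSF1 and DGAT1. No source used here says that the protocol marked strand, so reads in such shared parts cannot be assigned with certainty.

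Levels can be set side by side between genes once divided by length. Per kilobase of the longest annotated transcript, CYC1 led in both libraries, with 1384 CPM per kb in the si-P53RRA library and 170 CPM per kb in the control library. BOP1 followed with 1309 CPM per kb in the si-P53RRA library, where it was 2nd of the 9, and 69.5 CPM per kb in the control library, where it was 4th. GRINA held 6th place with 151 CPM per kb in the si-P53RRA library and 2nd place with 142 CPM per kb in the control library. DGAT1 and FBXL6, which had the largest ratios, were the lowest of the 9 in the control library at 5.38 and 3.70 CPM per kb. They reached 119 and 72.4 CPM per kb in the si-P53RRA library, where PARP10 alone was lower at 0.0752 CPM per kb.

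All 9 genes are rich in G and C. Their longest transcripts were 57.1% to 67.1% GC, beside a median of 48.2% over the genes tested. GC content moved with the difference between the libraries: of 1915 genes with at least 60% GC, 33.1% were at least 2-fold higher, and their median log2 difference was 0.45. After a correction for GC content and transcript length the 7 higher genes had log2 differences of 1.81 to 4.05, so all 7 stayed past 2-fold, and PARP10 was at −6.29.

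The order of genes along the chromosome was then followed outwards, using the reference order of a newer genome build, for which no coordinates are given here. The first tested genes of the block are PARP10 and GRINA, and from the next one on most genes were higher. OPLAH, which opens the ring of 5-oxoproline in glutathione turnover, had 977 counts in the si-P53RRA library and 20 in the control library, 71.8-fold higher (46.3 to 118). It lies beside EXOSC4 and exceeded every one of the 9 genes in ratio. Next came GPAA1, a subunit of the enzyme that attaches GPI anchors to proteins, with 12326 counts in the si-P53RRA library against 4398 in the control library, 4.12-fold higher (3.98 to 4.27). SHARPIN, a subunit of the linear ubiquitin ligase, sits between CYC1 and MAF1 and was 4.58-fold higher (4.25 to 4.94).

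Between MAF1 and BOP1 lie 3 more tested genes. KIAA1875 had 33 counts in the si-P53RRA library and 3 in the control library, 16.2-fold higher (5.08 to 82.4). HGH1 was 3.69-fold higher (3.17 to 4.29) and MROH1 2.75-fold higher (2.54 to 2.97). Past DGAT1, TMEM249 had 92 counts in the si-P53RRA library and 10 in the control library, 13.5-fold higher (7.04 to 29.2). SCX, a transcription factor gene of tendon cells whose span overlaps that of BOP1, went the other way with 5 counts in the si-P53RRA library and 22 in the control library. Its CPM ratio was 2.99-fold lower (1.11 to 10.1), but its log2 difference with the pseudocount was −0.95, short of 2-fold. SPATC1 and SCRT1, also inside the block, had 1 and 6 counts in the si-P53RRA library, were at 0 in the control library, and stayed under 1 CPM. In all, 7 of the 8 other tested genes between the outermost members were at least 2-fold higher, beside 19.7% of all genes. None was lower on the log2(CPM + 0.5) scale, beside 23.2%, and the median difference of the 8 was 2.11. After the GC and length correction SCX was at −2.32, past 2-fold lower, and every other gene of the 8 stayed at least 2-fold higher.

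**Figure D2:**
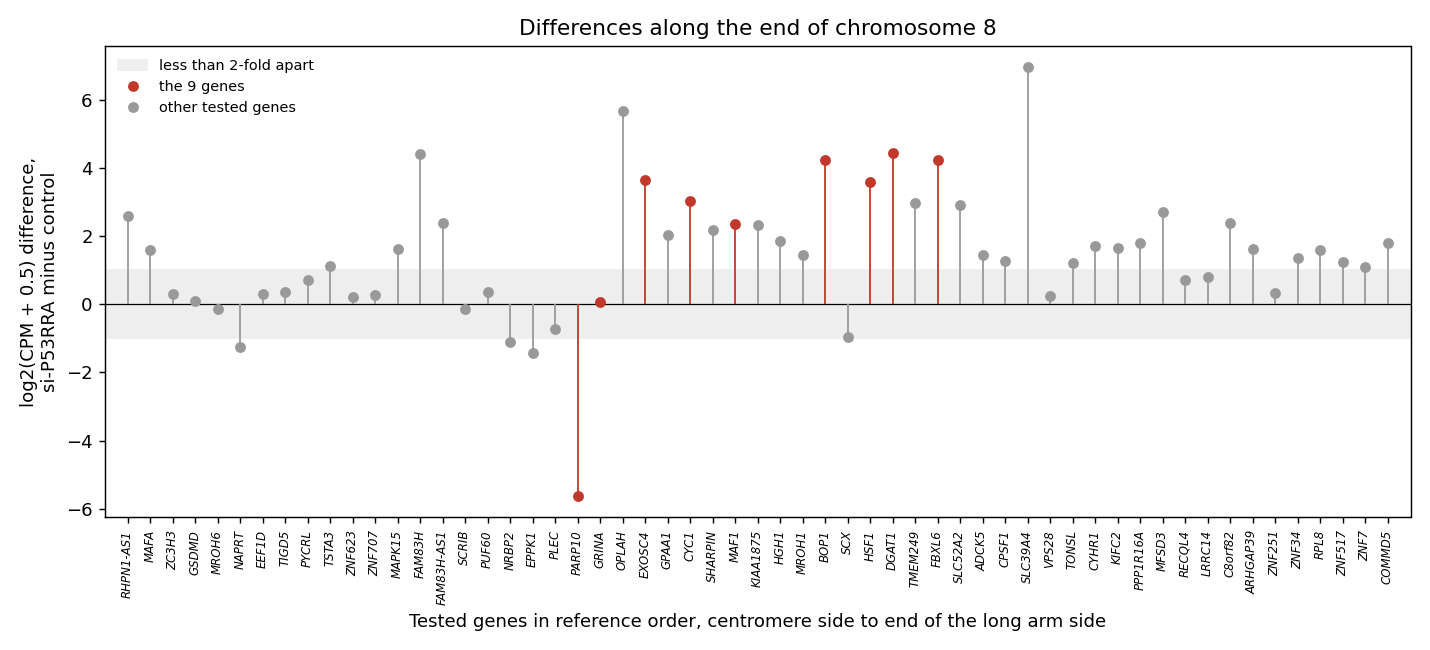
Difference in log2(CPM + 0.5), si-P53RRA minus control, for the 9 genes (red) and the 48 other tested genes around them (grey), in reference order from the centromere side towards the end of the long arm. Each point is the difference between 2 single libraries, and the grey band marks less than 2-fold. PARP10 and GRINA lie left of OPLAH, from which on most points are above the band.

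On the side towards the centromere, 6 of 20 neighbours were at least 2-fold higher and 3 lower, beside 19.7% and 23.2% of all genes, and the median log2 difference was 0.30. FAM83H, which organises keratin filaments, was 26.2-fold higher there (18.7 to 38.0). The adjacent FAM83H-AS1, whose current symbol is IQANK1, had 28 counts in the si-P53RRA library against 1 in the control library. RHPN1-AS1 was 8.92-fold higher (5.14 to 16.6). The lower ones were the plakin gene EPPK1, with 2 counts against 22 in the control library, the NAD synthesis gene NAPRT, 2.47-fold lower (1.92 to 3.21), and NRBP2, 2.18-fold lower (1.82 to 2.61). PLEC, which encodes the cytoskeletal linker plectin and adjoins PARP10, had 9898 counts in the si-P53RRA library and 23824 in the control library. Its log2 difference was −0.71, and −1.48 after the GC and length correction, past 2-fold lower.

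On the side towards the end of the long arm, 16 of 20 neighbours were at least 2-fold higher, beside 19.7% of all genes. None was lower, beside 23.2%, and the median log2 difference was 1.53. Over all 48 neighbours, on both sides and between the members, 29 were at least 2-fold higher. After the GC and length correction 22 of the 48 were. RPL8, CPSF1, TONSL, KIFC2, ADCK5 and ZNF517, all on the long arm end side, were among those that then fell within 2-fold. SLC39A4, a zinc importer, had 703 counts in the si-P53RRA library and 0 in the control library. It was 345-fold higher against a floor of 3 counts in the control library, with an exact lower limit of 280-fold. The riboflavin transporter gene SLC52A2 next to FBXL6 was 7.57-fold higher (7.11 to 8.06) and MFSD3 6.71-fold higher (5.77 to 7.83). The ribosomal protein gene RPL8 had 36631 counts in the si-P53RRA library and 17752 in the control library, 3.04-fold higher (2.98 to 3.09). VPS28, RECQL4, LRRC14 and ZNF251 were within 2-fold.

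Taking OPLAH as the start, a limit set after the values were seen, 32 of the 40 tested genes to the end of the chromosome were at least 2-fold higher and none lower, the 7 higher members included. Without the members, 25 of 33 were higher, with a median log2 difference of 1.45. These counts are before the GC and length correction. After it SCX was past 2-fold lower at −2.32. RPL8, CPSF1, TONSL, KIFC2, ADCK5 and ZNF517 were among the genes of this stretch that then fell within 2-fold. The shares over all genes are 19.7% higher and 23.2% lower. Over the remaining 425 tested genes of chromosome 8 before OPLAH, again without members, 83 were higher, 106 were lower and the median was −0.13. The chromosome was also cut into runs of 20 tested genes from the end of the long arm, members included. The run from OPLAH to VPS28 had a median of 2.63 and 18 genes higher, a value that the 7 higher members partly set; the other 13 genes of the run had a median of 2.04 and 11 higher. The last run, from TONSL to C8orf33, had a median of 1.35 with 14 higher. The run just before, from ZC3H3 to GRINA, had a median of 0.24 with 4 higher and 4 lower, PARP10 among the lower. Higher genes were also frequent further towards the centromere. The run from PTK2 to MAFA had a median of 0.66 with 9 higher and 2 lower. That from MYC to AGO2 had a median of 1.57 with 11 higher and 4 lower. The run beyond these, from ZHX1 to CASC11, had a median of −1.13 with 3 higher and 10 lower.

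**Figure D3:**
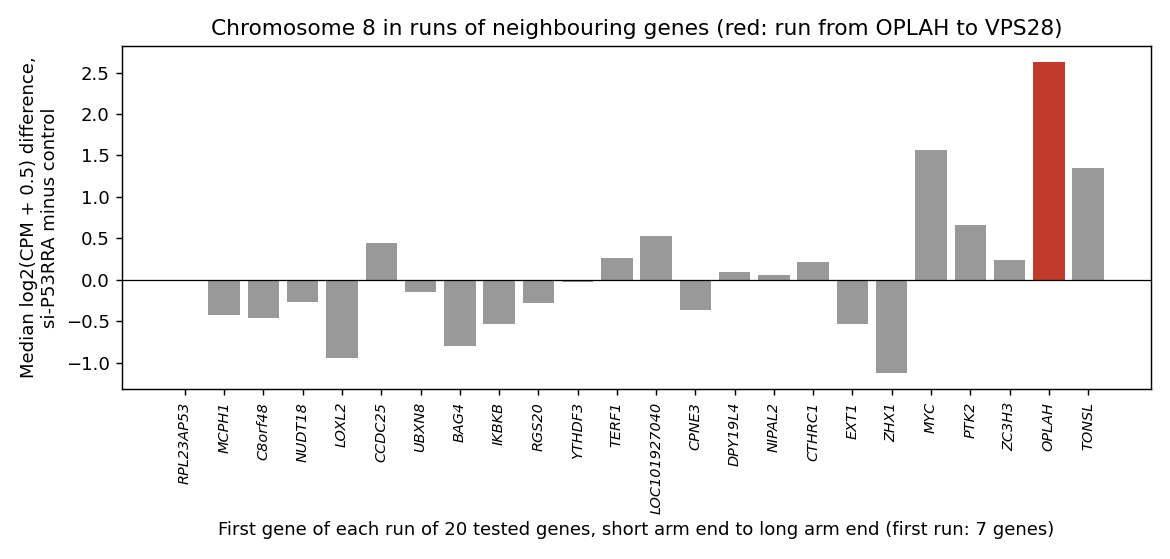
Median difference in log2(CPM + 0.5), si-P53RRA minus control, for runs of 20 neighbouring tested genes along chromosome 8, from the short arm end to the long arm end, each named by its first gene; the first run holds 7 genes. The run from OPLAH to VPS28 (red) holds the 7 higher genes of the block and has a median of 2.63, and the run before it, which ends with PARP10 and GRINA, has a median of 0.24.

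The genes were next set beside the partners they work with. The list counts stand against the same shares over all genes, 19.7% higher and 23.2% lower. CYC1 was 8.16-fold higher, whereas the 8 other measured genes of complex III subunits ran from 0.699-fold for UQCRQ to 2.39-fold for UQCRH. UQCRC1, a core subunit, was 2.12-fold higher (2.04 to 2.20), and UQCRFS1, the iron-sulphur subunit next to cytochrome c1 in electron transfer, was 1.16-fold higher (1.09 to 1.24). Per kilobase, CYC1 stood at 11.9 times the median of these 8 genes in the si-P53RRA library and at 2.01 times in the control library. Cytochrome c itself, CYCS, was 1.43-fold higher. Of the 16 listed genes of complex III, its assembly and cytochrome c, 4 were at least 2-fold higher and none lower, but 1 was higher on total counts and none after the GC and length correction.

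The exosome gave the same kind of contrast. EXOSC4 was 12.8-fold higher while the other 9 EXOSC genes lay between 0.589-fold for EXOSC1 and 1.98-fold for EXOSC6, none of them 2-fold different. EXOSC4 was at 20.5 times the median level per kilobase of those 9 in the si-P53RRA library and at 1.63 times in the control library. In the wider list of 21 exosome genes and cofactors none was 2-fold higher, 2 were lower and the median was −0.16. The lower ones were TTC37 by 4.67-fold (4.11 to 5.32) and RBM7 by 2.54-fold (2.13 to 3.04).

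BOP1 likewise stood apart in size from PES1 and WDR12, with which it forms the PeBoW complex. PES1 had 3586 counts in the si-P53RRA library and 2920 in the control library, 1.81-fold higher (1.72 to 1.90), and WDR12 was 1.59-fold higher (1.43 to 1.77). Of 24 listed genes of the complex and of large subunit biogenesis, 6 were at least 2-fold higher, 1 was lower, and the median log2 difference was 0.51; the share that was higher is near the 19.7% of all genes. The largest differences in the list were those of DKC1, the pseudouridine synthase of small nucleolar particles, 3.09-fold higher (2.95 to 3.24), RRS1 at 2.89-fold (2.63 to 3.17) and NOP16 at 2.59-fold (2.36 to 2.85).

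MAF1 was set beside the polymerase it represses. Of 29 genes of RNA polymerase III and its initiation factors, 4 were at least 2-fold higher and 2 lower. Their median log2 difference was 0.47, and on total counts 2 were higher. POLR3K, a small subunit, was 4.44-fold higher (3.96 to 4.98), close in size to MAF1 at 5.12-fold. The largest difference was that of BDP1, a part of the initiation factor TFIIIB, which was 6.28-fold lower (4.76 to 8.43), and POLR3F was 3.41-fold lower (2.63 to 4.47).

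HSF1 had a list of relatives and chaperone targets in which 18 of 26 genes were at least 2-fold higher and none lower, beside 19.7% higher and 23.2% lower over all genes. The median log2 difference of the list was 1.31. CRYAB, a small heat shock protein, had 69 counts in the si-P53RRA library and 8 in the control library, 12.7-fold higher (6.09 to 30.5). AHSA1, which activates HSP90, was 5.81-fold higher (5.49 to 6.16), and HSPA1A was 4.80-fold higher (4.44 to 5.19), though its reads may be split with the near-identical HSPA1B. The other listed heat shock factors differed in direction. HSF4 had 80 counts in the si-P53RRA library and 20 in the control library, 5.88-fold higher (3.57 to 10.1), whereas HSF2 had 167 counts against 406 in the control library, a log2 difference of −0.71. After the GC and length correction 16 of the 26 were higher.

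DGAT1 shares its reaction with the unrelated enzyme DGAT2, which had 418 counts in the si-P53RRA library and 30 in the control library, 20.5-fold higher (14.1 to 30.8). Its interval overlaps that of DGAT1. Of 21 tested genes of triacylglycerol synthesis and storage, 6 were at least 2-fold higher and 2 lower, and the median log2 difference was 0.13. PLIN4, a lipid droplet coat gene, was 14.4-fold higher (10.1 to 21.2), while LPIN3 had 63 counts in the si-P53RRA library and 2 in the control library. SOAT1, which esterifies cholesterol and is a relative of DGAT1, had 416 counts against 1254 in the control library and a log2 difference of −1.03.

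FBXL6 was matched by few of its relatives. Of 20 tested genes of the FBXL family and the core of the SCF ubiquitin ligase, 1 was at least 2-fold higher and 4 were lower, and the median log2 difference was 0.20. FBXL16 was the higher one, with 1009 counts in the si-P53RRA library and 21 in the control library, 70.7-fold (46.0 to 115). FBXL7 had 1 count in the si-P53RRA library against 515 in the control library, 350-fold lower (62.6 to 13857). SKP1, the adaptor that binds F-box proteins, was 2.38-fold lower (2.25 to 2.52).

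**Figure D4:**
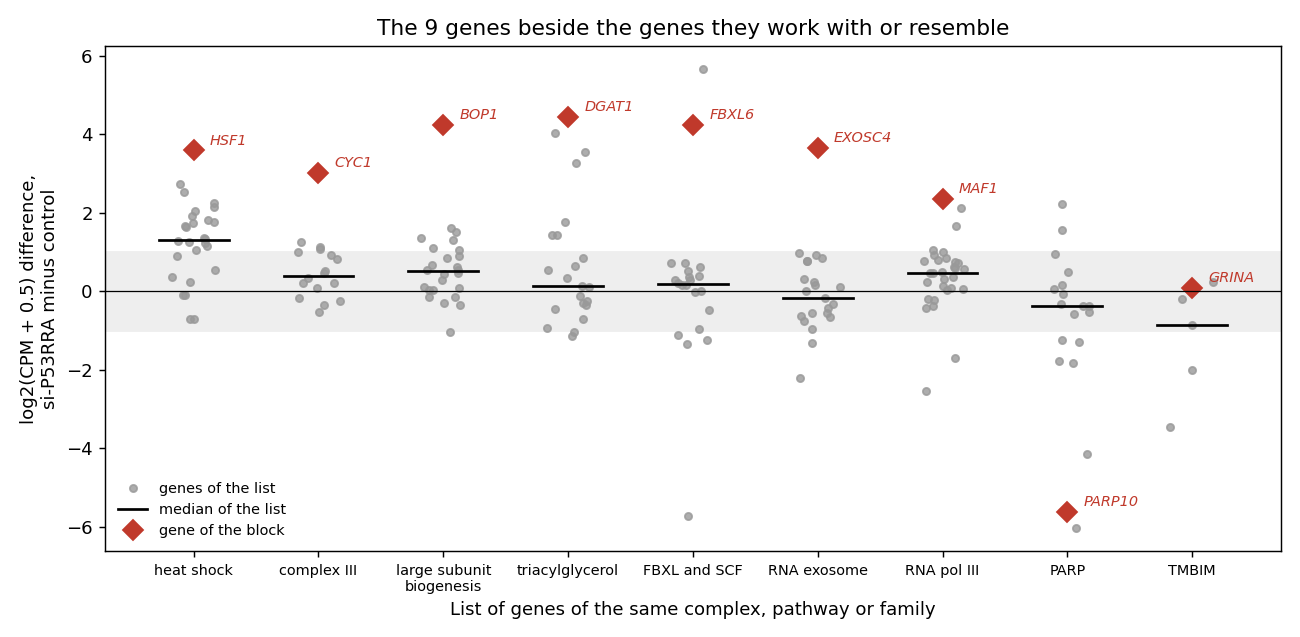
Difference in log2(CPM + 0.5), si-P53RRA minus control, for each of the 9 genes (red diamonds) beside the tested genes of its complex, pathway or family (grey points, with a black line at their median). HSF1, CYC1, BOP1, DGAT1, EXOSC4 and MAF1 lie above every tested gene of their lists, FBXL6 lies above all but FBXL16, and PARP10 lies below all but PARP6.

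PARP10 was not alone in its family in being almost undetected. Of 18 tested genes of the PARP family and its partners, 2 were at least 2-fold higher and 6 lower, and the median log2 difference was −0.36. PARP6 had 0 counts in the si-P53RRA library and 543 in the control library, and PARP11 had 0 counts against 139. Against a floor of 3 counts in the si-P53RRA library they were 123-fold and 31.5-fold lower. The exact lower limits were 99.7-fold for PARP6 and 25.3-fold for PARP11. PARP1, the main DNA damage sensor of the family, was 2.98-fold higher (2.87 to 3.09). PARG, which removes poly(ADP-ribose), was 4.79-fold higher (4.28 to 5.37). GRINA stood beside 5 other TMBIM genes, of which none was at least 2-fold higher and 2 were lower; their median log2 difference was −0.86. FAIM2 had 0 counts in the si-P53RRA library and 83 in the control library, at least 18.8-fold lower, and TMBIM1 was 4.09-fold lower (3.63 to 4.62). TMBIM6, the most counted of them, had 7104 counts in the si-P53RRA library and 12000 in the control library and a log2 difference of −0.20.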

How the data were processed

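The authors deposited whole-number counts per gene symbol for 2 libraries, not normalized as judged from the values. Reads were mapped to hg19, per the submitters' processing notes; the sources used here do not name the aligner, counting program, annotation or strand. The si-P53RRA column was matched by title and the other column was taken as the control from its name. Library sizes were scaled by the trimmed mean of M-values (edgeR 4.0.16, R 4.3.3; factors 0.955 for si-P53RRA and 1.05 for control). Differences are log2(CPM + 0.5), si-P53RRA minus control, for genes at 1 CPM or more in at least 1 library; folds are CPM ratios with exact conditional binomial 95% intervals. Reads carry no molecular identifiers, so intervals and floors hold for counting error alone. With 1 library a group, no count test (edgeR or DESeq2) was run.

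The members and lists were chosen with earlier results of these data known. Named were all members, every tested gene between them, the largest differences among neighbours (at most 6 each way) and, per list, core partners plus at most 3 with the largest difference. RECQL4, PLEC, RPL8, VPS28 and other genes outside that rule were named after their values were seen. Gene order came from RefSeq (GRCh38; 98.4% of tested genes placed), lengths and GC from GENCODE 29 transcripts (97.9%). The GC and length correction subtracts a cubic surface. On simulated counts over 17249 genes for this comparison, all 100 genes raised 3-fold passed 2-fold. The simulated counts held counting error alone and most genes were unchanged, unlike here. The result thus checks the calculation and not the reliability of these libraries.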

Additional observations from a re-analysis of the deposited data

How the results depend on the processing

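No paired analysis was possible because each group had 1 library, and for the same reason no library could be left out. Alternatives were total-count, upper-quartile and DESeq2 1.42.0 median-ratio scaling, pseudocounts of 0.1 and 2.5 CPM, no filter or 5 CPM, folds of 1.5 and 3, a counting interval that excludes 1, the GC and length correction and other widths of neighbourhood. Under all of them that apply to the members, 7 members stayed higher and 1 lower. Total-count scaling put the median of all genes at −0.18 rather than −0.06 and gave a members' median of 3.46; the GC and length correction gave 3.09. The count of neighbours at least 2-fold lower, 3 as reported, was 4 with a pseudocount of 0.1 CPM, on total counts or with no filter, 1 with a pseudocount of 2.5 CPM, 5 at 1.5-fold, 0 at 3-fold and 5 after the GC and length correction, where the neighbours' median was 0.87 rather than 1.32. With 10 genes on each side 19 neighbours were higher, and between the outermost members alone 7 were higher and 0 lower, since fewer genes are counted; the median was then 2.11. Counts over all genes at 3-fold were 1587 higher and 1964 lower, against 2667 and 3135 at 2-fold. Of 242 other counts, over lists, chromosome 8 and all genes, 29 moved by more than 1.5 times. After the GC and length correction the list counts that moved were those of complex III (0 higher), large subunit biogenesis (3 higher), triacylglycerol (1 lower), FBXL and SCF (2 higher) and the exosome (1 higher and 1 lower). For the moved values, apart from those of a different fold or fewer genes, the cause was not tested. Depth limits genes at 5 counts or fewer in 1 library, among them PARP10, SCX, KIAA1875, EPPK1, FAM83H-AS1, SLC39A4, FBXL7, LPIN3, PARP6, PARP11 and FAIM2.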

Other observations

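Elsewhere on chromosome 8 the runs of 20 tested genes went both ways. The run from MYC, the growth-promoting transcription factor, to AGO2, the slicer of small RNA silencing, had 11 genes at least 2-fold higher in the si-P53RRA library and 4 lower, with a median log2 difference of 1.57. The run next to it towards the centromere, from ZHX1 to CASC11, had 3 higher and 10 lower and its median was −1.13. On the short arm the run from LOXL2 to SCARA3 had 3 higher and 9 lower and its median was −0.94.

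By whole chromosomes, 24.6% of 467 tested genes of chromosome 8 were at least 2-fold higher and 22.9% lower, 5th of 23 chromosomes by the share that was higher. Chromosome 14 came first, with 44.2% of 450 genes higher, 10.7% lower and a median log2 difference of 0.84, and chromosome 15 came last with 9.13% higher and 37.0% lower.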
